A study of Rattus norvegicus with 6 samples.

Results

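The genes described here encode voltage-gated sodium and calcium channels and their auxiliary subunits. They were found by symbol among array probe sets with exactly 1 annotated gene: names that start with Scn and a digit, or with Cacna, Cacnb or Cacng. This gave 35 genes from 36 probe sets, 11 of sodium channels and 24 of calcium channels, out of 14497 genes with such a probe set. Where a gene had several probe sets, that with the highest mean stood for it, which applied to Scn3a only. A probe set annotated to both Scn3a and Scn9a was left out, and Scn9a has no value here.

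The RNA came from brains of male Sprague-Dawley rats and was read on 6 single-channel Affymetrix arrays. Tissue from around the infarct had been taken at 3 d and 14 d after the middle cerebral artery was lifted with a tungsten hook to stop its flow for a time, and healthy brain tissue had come from naive rats without stroke. After stroke the aged rats were 19 to 20 and the young rats 3 to 4 months old, and each array held pooled RNA of 23 aged or 19 young rats. The naive arrays held pools of 15 rats each, aged 18 to 20 months or 3 to 5 months, and the region of their tissue is not given in the labels. Each of the 6 groups was therefore 1 array without a repeat of any pool, and this small number limits how precise each value below can be. Values are log2 array values, on which 1 unit is a doubling. They are compared for the same gene between arrays and not between genes.

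Sodium channels open within a fraction of a millisecond of a depolarisation and carry the upstroke of the action potential. Their large alpha subunit forms the pore, and small beta subunits tune its gating and its place in the membrane. Calcium channels turn depolarisation into calcium entry, which drives transmitter release at presynaptic sites and gene transcription in the cell body. Their pore subunit is joined by an extracellular alpha2delta and a cytoplasmic beta subunit, both of which raise the number of channels at the surface. Most brain proteins named gamma subunits of calcium channels work mainly as partners of AMPA-type glutamate receptors.

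Of the 35 genes 30 reached the 40th percentile of the array on at least 1 array (6.49 to 6.62 on the log2 scale) and were tested. The other 5 lay below it on all 6 arrays and are listed with no change. Scn4a, the pore of skeletal muscle, lay between 5.65 and 6.39, Scn10a between 5.22 and 5.66, and Scn11a between 4.79 and 5.34. Scn10a and Scn11a are known from peripheral sensory neurons. Cacna1f, the L-type pore of the retina, lay between 6.02 and 6.32, and Cacng6, a relative of the muscle gamma subunit, between 5.41 and 6.1. Of the 30 tested genes 28 were above the 40th percentile on all 6 arrays. Cacng1, the gamma subunit of skeletal muscle, passed only on the young naive array, and Scn7a on all but that array.

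Tests used limma on all 6 arrays together, in a model that adds an effect of age to an effect of time (naive, 3 d or 14 d), with Benjamini-Hochberg adjustment over 10947 genes. A value after ± is the standard error (SE) that limma gave, each time having 2 arrays. The arrays of both ages served as repeated measurements of a time effect, so the p-values measure the spread between these pools about a common effect. Aged and young changes at 3 d and 14 d within an age share its naive array.

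The first question was how channel genes differed between tissue around the infarct and naive brain. At 3 d 11 of the 30 tested genes had fallen and 1, Scn7a, had risen. Over all genes 7.87% were lower and 14.4% higher at that time. At 14 d 19 of 30 were lower and again Scn7a alone was higher, against 11.4% lower and 13.6% higher of all genes. The median change of the 30 genes was -0.36 at 3 d and -0.52 at 14 d, beside -0.03 and -0.05 over all genes. In bulk tissue fewer cells of a type and less RNA per cell cannot be told apart. The region of the naive tissue is not given, so a difference in region cannot be told apart from an effect of stroke either. Striatal and thalamic marker levels differed between the naive arrays, as given below. Here fell and rose mean lower and higher than naive.

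These counts depended on the naive arrays, which serve every comparison with stroke. Without the aged naive array 2 genes were lower at 3 d and 4 at 14 d, and without the young naive array 3 and 7. Over all genes the lower calls at 3 d then also fell to 70 and 254, against 861 with all arrays. The 3 d count was 3 without the young 3 d array, 6 without the aged 3 d array and 18 without either 14 d array. In each of the fits named here the lower calls over all genes moved in the same direction as those of the channel genes. A fit with an array left out has 1 residual degree of freedom. Of the 11 lower calls at 3 d that of Scn3b alone held in all 13 alternative fits, and of the 19 at 14 d those of Scn1a, Scn4b and Cacna2d2. These 13 were not all distinct. Leaving out either 14 d array gives the same fit for 3 d against naive, and either 3 d array the same fit for 14 d. For a gene with 1 probe set, other filters, mean probe sets, trended variances and the model without age leave the estimate as it is.

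**Figure D1:**
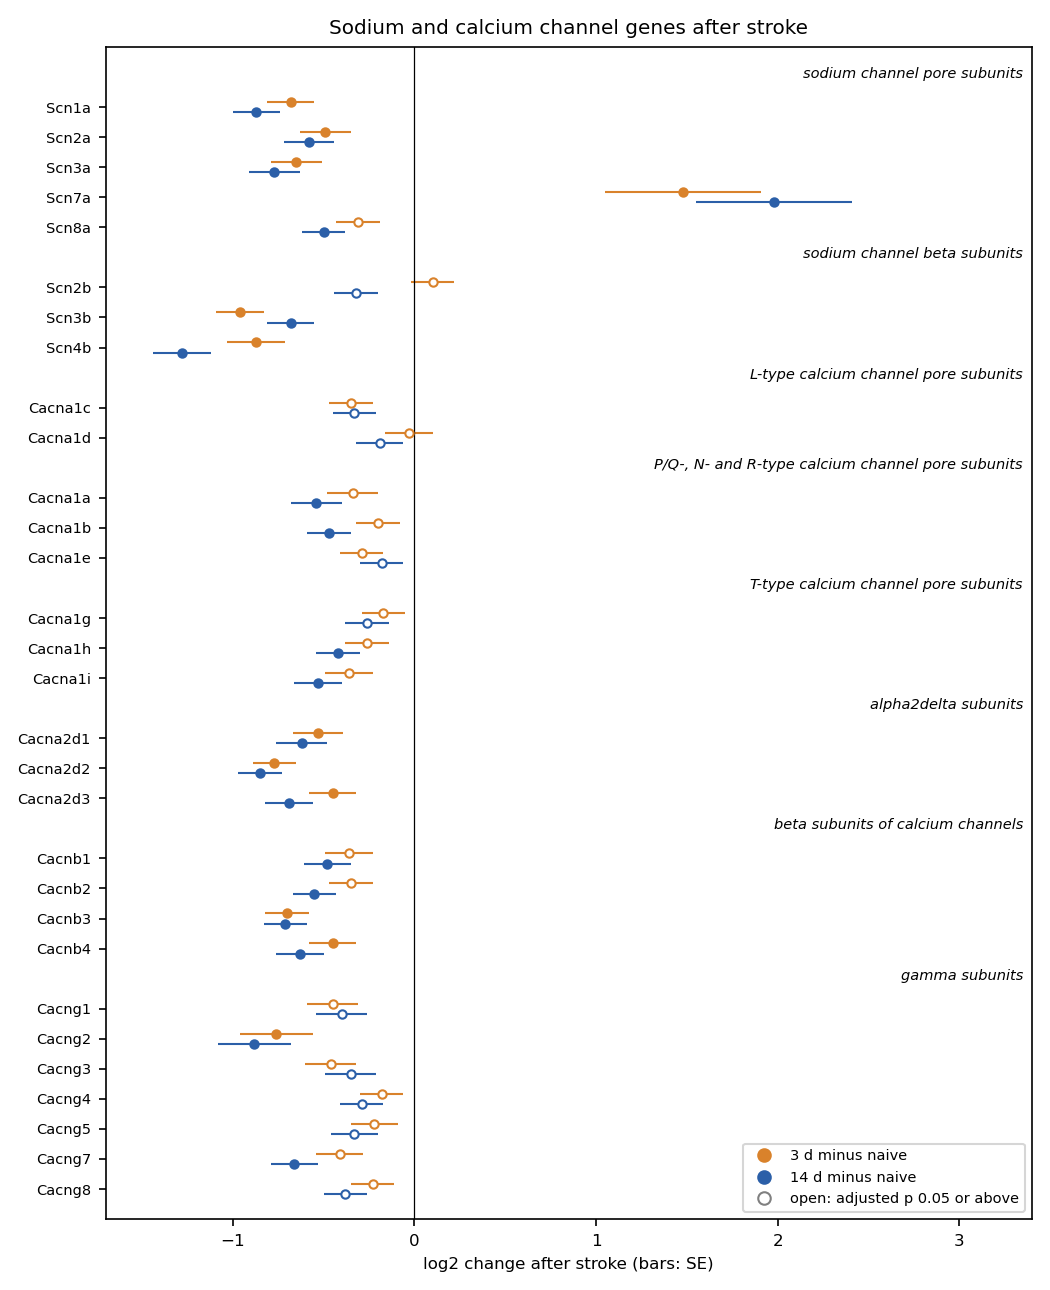
Log2 change after stroke against naive for the 30 tested genes, grouped by role, at 3 d (orange) and 14 d (blue). Points are limma estimates from 6 arrays, bars their SE, and filled points passed an adjusted p of 0.05. All filled points but those of Scn7a lie left of 0, with Scn4b at 14 d farthest left (-1.28).

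Scn7a encodes an atypical sodium channel subunit that is hardly gated by voltage. In mice it serves glial cells of some brain regions as a sensor of extracellular sodium. In aged rats its log2 value was 6.7 in naive tissue, 7.55 at 3 d and 7.54 at 14 d. In young rats it was 5.49 in naive tissue, 7.6 at 3 d and 8.6 at 14 d. All 4 stroke arrays were above both naive arrays. The change was 1.48 ± 0.43 at 3 d (2.79-fold, limma adjusted p = 0.0457) and 1.98 ± 0.43 at 14 d (3.94-fold, adjusted p = 0.0152).

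The single pools of Scn7a had unlike values in aged and young rats, but the test of an age difference in its stroke response did not pass (limma adjusted p = 0.998). The young value lay at the 21.8th percentile of its naive array and at the 75.5th at 14 d, and the aged value at the 42.7th and the 56.5th. At 3 d the aged and young arrays differed by -0.06, whereas aged minus young was 1.21 in naive tissue and -1.06 at 14 d. The young naive value is below the lower quartile of its array (5.69), so the size of the young change is uncertain. Without the young naive array the change was 0.60 at 3 d and 1.09 at 14 d, and neither passed (limma adjusted p = 0.273 and 0.0752). Without the young 3 d array the 3 d change was 1.42 and did not pass either (adjusted p = 0.0837). The 3 d call was lost, too, in a model without age, with quantile normalization and with trended and robust variances (adjusted p = 0.0517, 0.0538 and 0.18), thus in 5 of 13 alternatives. The 14 d call also ended with trended and robust variances (adjusted p = 0.0987), thus in 2 of 13.

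Some markers of several cell types also rose after stroke, beside 14.4% of all genes higher at 3 d and 13.6% at 14 d. Of 6 fibroblast and meningeal markers all 6 rose at both times. Their mean log2 value over naive, 3 d and 14 d was 7.66, 8.62 and 9.9 in aged and 7.83, 9.1 and 9.92 in young rats. Of 10 microglia and macrophage markers all 10 rose, with means of 8.53, 10.26 and 10.74 in aged and 8.15, 10.17 and 10.19 in young rats. Of 8 astrocyte markers 2 rose at 3 d and 4 at 14 d, with means between 10.81 and 11.29. Of 3 tested markers of Schwann cells and peripheral sensory neurons 2 rose at 3 d and 1 at 14 d, with means of 6.11, 7.01 and 6.29 in aged and 6.05, 7.36 and 6.43 in young rats. Of 6 T cell markers only Cd4, Cd8a and Cd8b were tested, and Cd3e, Cd3d and Cd3g were not. Of the 3 tested, 3 rose at 3 d and 2 at 14 d. Of 7 endothelial markers 4 rose at 3 d and 3 at 14 d. Of 7 smooth muscle and pericyte markers 4 and 1 rose, and of 5 oligodendrocyte precursor markers 1 and 3. Pdgfrb, the smooth muscle and pericyte marker higher at 14 d, is also counted among the 6 fibroblast and meningeal markers. The part of all these cell types in the change of Scn7a was not tested.

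Scn7a lies in a cluster of sodium channel genes on chromosome 3, in the order Scn3a, Scn2a, Scn1a, Scn9a and Scn7a. In the RefSeq table of assembly GRCr8, 4 other protein-coding genes lie between Scn2a and Scn1a, and 0 between the other neighbours. The 3 other members of the cluster with a value, Scn3a, Scn2a and Scn1a, all fell at both times. The stretches of 250 bases before the RefSeq starts of Scn7a, Scn3a and Scn2a (build GRCr8) are shown because the gene that rose and these genes that fell belong to the same cluster, though they are not direct neighbours of Scn7a. Capitals mark matches on either strand to any of 4 motifs. The GC box was spelled GGGCGG, while the CCAAT box has the letters of its name. The TATA box was spelled TATAAA, and the AP-1 motif was searched for as TGANTCA, in which N is any base.
Scn7a, chr3:71846285-71846534, minus strand: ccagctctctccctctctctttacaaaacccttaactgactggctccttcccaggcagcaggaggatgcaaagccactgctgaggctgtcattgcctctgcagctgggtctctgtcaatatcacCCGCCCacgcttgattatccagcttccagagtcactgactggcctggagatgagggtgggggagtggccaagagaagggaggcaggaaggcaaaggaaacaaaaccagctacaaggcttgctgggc
Scn3a, chr3:70666199-70666448, minus strand: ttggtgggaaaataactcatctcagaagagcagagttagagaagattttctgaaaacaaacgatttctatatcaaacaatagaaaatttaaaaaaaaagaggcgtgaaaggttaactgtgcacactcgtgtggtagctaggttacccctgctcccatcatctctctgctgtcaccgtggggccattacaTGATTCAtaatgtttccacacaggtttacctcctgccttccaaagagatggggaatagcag
Scn2a, chr3:70710706-70710955, plus strand: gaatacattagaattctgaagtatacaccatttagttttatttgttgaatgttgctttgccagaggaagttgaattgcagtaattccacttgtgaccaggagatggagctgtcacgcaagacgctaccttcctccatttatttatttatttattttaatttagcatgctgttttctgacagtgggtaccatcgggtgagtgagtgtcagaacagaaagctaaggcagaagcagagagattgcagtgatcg
The Scn7a stretch holds 1 GC box, 126 bases before the start, and 2 CpG dinucleotides. The Scn3a stretch holds 1 AP-1 motif, 61 bases before the start, and 4 CpG. The Scn2a stretch holds no match and 4 CpG. Among all 33469 RefSeq promoter stretches of that length 30.5% hold a GC box, 34.0% a CCAAT box, 12.9% a TATA box and 6.3% an AP-1 motif, and the median is 5 CpG. A match is a description of the letters and does not show that a factor binds.

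Of the other 4 tested sodium channel pores 3 fell at 3 d and all 4 at 14 d. Scn1a, the pore subunit prominent in fast-spiking interneurons, had log2 values of 10.02 in naive tissue, 9.42 at 3 d and 9.11 at 14 d in aged rats. In young rats it had 10.08, 9.31 and 9.25 in the same order. It fell at 3 d (-0.68 ± 0.13, limma adjusted p = 0.00797) and at 14 d (-0.87 ± 0.13, adjusted p = 0.00279). The stroke arrays lay below both naive arrays at either time and in either age. The 14 d call of Scn1a held in all 13 alternative fits, with changes between -0.95 and -0.79.

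Scn2a, the pore of the axon initial segment of excitatory neurons, had 10.95, 10.33 and 10.16 in aged rats over naive, 3 d and 14 d, and 11, 10.63 and 10.62 in young rats. It fell by 0.49 ± 0.14 at 3 d (limma adjusted p = 0.0409) and by 0.58 ± 0.14 at 14 d (adjusted p = 0.0207), and the 3 d call ended in 6 of 13 alternatives. Scn3a, best known from the embryonic brain, had 8.99, 8.17 and 8.05 in aged and 9.17, 8.69 and 8.57 in young rats. It fell by 0.65 ± 0.14 and 0.77 ± 0.14 (adjusted p = 0.0138 and 0.00661). Its other probe set gave -0.52 and -0.57 in aged and -0.46 and -0.62 in young rats. For Scn2a and Scn3a the aged stroke arrays lay below the young ones, with aged minus young at -0.30 and -0.45 for Scn2a and -0.53 and -0.52 for Scn3a. Scn8a, the main pore of mature nodes of Ranvier, had 9.82, 9.56 and 9.31 in aged and 9.96, 9.6 and 9.47 in young rats. Its change at 3 d was -0.31 ± 0.12 and did not pass (adjusted p = 0.104), and it fell by 0.50 ± 0.12 at 14 d (adjusted p = 0.0202).

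The sodium channel beta subunits had unlike courses. Scn4b, whose cytoplasmic tail blocks open channels and so allows resurgent current, had 9.99, 9.26 and 8.52 in aged rats over naive, 3 d and 14 d, and 10.33, 9.33 and 9.24 in young rats. It fell by 0.87 ± 0.16 at 3 d (limma adjusted p = 0.00921) and by 1.28 ± 0.16 at 14 d (adjusted p = 0.00175), to 41.1% of the naive level. The 14 d change was lower than that of any other tested channel gene here, and the call held in all 13 alternatives, between -1.54 and -1.03. Markers of striatal projection neurons moved the same way, with all 8 tested lower at both times and median changes of -1.15 and -1.05. Their mean log2 value was 9.7, 8.64 and 8.55 in aged and 10.19, 8.93 and 9.18 in young rats, so that they too differed between the naive arrays. Their part in the Scn4b change was not tested.

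Scn3b, which binds the pore without a covalent bond, had 10.52, 9.44 and 9.73 in aged and 10.7, 9.86 and 10.12 in young rats over naive, 3 d and 14 d. It fell by 0.96 ± 0.13 at 3 d (limma adjusted p = 0.00186), the lowest change of the 30 genes at that time, and by 0.68 ± 0.13 at 14 d (adjusted p = 0.0077). The 3 d call held in all 13 alternatives. Scn2b, which is bound to the pore by a disulfide bond, had 9.97, 10.07 and 9.63 in aged and 10.08, 10.18 and 9.77 in young rats. Its changes of 0.10 ± 0.12 at 3 d and -0.32 ± 0.12 at 14 d did not pass (adjusted p = 0.56 and 0.0821). At 3 d the Scn2b value was 0.10 above the naive array in aged and in young rats.

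Scn2b and Scn4b are direct neighbours on chromosome 8, and their upstream stretches are shown because the members of this pair had unlike courses. Capitals have the meaning given above.
Scn4b, chr8:54343623-54343872, plus strand: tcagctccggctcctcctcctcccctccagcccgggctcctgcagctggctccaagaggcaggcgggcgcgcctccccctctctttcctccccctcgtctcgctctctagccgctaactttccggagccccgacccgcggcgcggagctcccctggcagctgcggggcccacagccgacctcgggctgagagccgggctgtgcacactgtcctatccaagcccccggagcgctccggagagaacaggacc
Scn2b, chr8:54322133-54322382, plus strand: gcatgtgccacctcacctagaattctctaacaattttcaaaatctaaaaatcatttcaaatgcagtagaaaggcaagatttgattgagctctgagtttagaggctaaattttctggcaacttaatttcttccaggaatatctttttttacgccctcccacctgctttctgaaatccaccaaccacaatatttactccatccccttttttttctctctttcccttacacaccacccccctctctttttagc
Neither stretch holds a match to the motifs searched. The Scn4b stretch has 21 CpG and a GC content of 71.6%, and the Scn2b stretch 1 CpG and 38.8%.

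**Figure D2:**
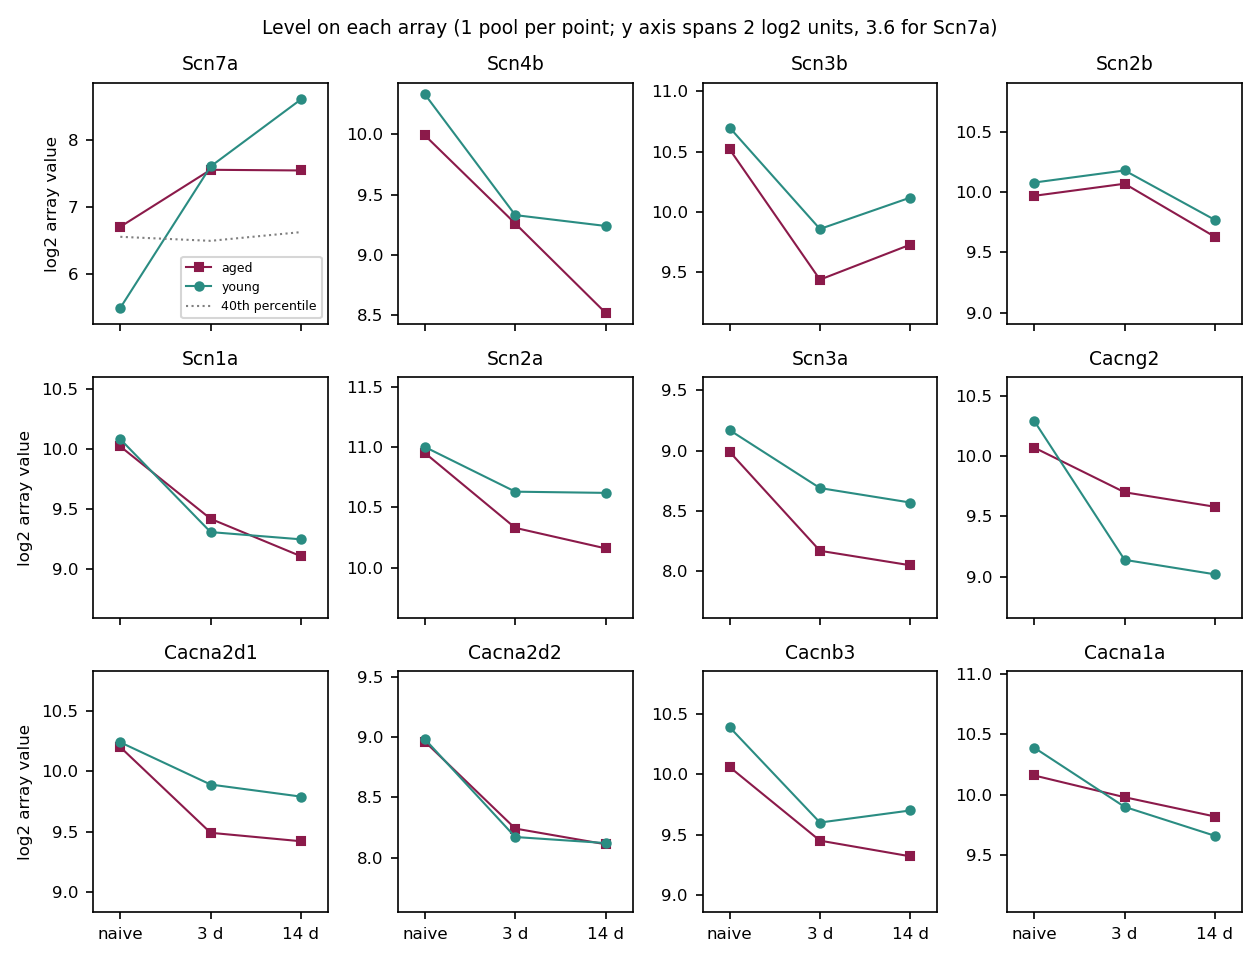
Log2 array value of 12 channel genes in aged (squares) and young (circles) rats, naive, 3 d and 14 d after stroke, with 1 pool per point. The dotted line for Scn7a is the 40th percentile of the young arrays, which the young naive value of 5.49 does not reach. Scn7a climbs, Scn2b is higher at 3 d than at 14 d, and Cacng2 is lower in young than in aged rats at both times after stroke.

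Of the 6 calcium channel pores of the P/Q, N, R and T types 4 were lower at 14 d, namely Cacna1a, Cacna1b, Cacna1h and Cacna1i. Cacna1a, the P/Q-type pore that triggers release at most central synapses, had 10.16, 9.98 and 9.82 in aged and 10.39, 9.9 and 9.66 in young rats over naive, 3 d and 14 d. It changed by -0.34 ± 0.14 at 3 d (limma adjusted p = 0.122, not passed) and fell by 0.54 ± 0.14 at 14 d (adjusted p = 0.0279). Cacna1b, the N-type pore, had 9.35, 9.25 and 8.96 in aged and 9.54, 9.24 and 8.97 in young rats. It fell at 14 d by 0.47 ± 0.12 (adjusted p = 0.0286), while -0.20 ± 0.12 at 3 d did not pass (adjusted p = 0.278). Both 14 d arrays of either gene lay below its naive and 3 d arrays of the same age. Cacna1e, the R-type pore, passed at neither time (-0.29 and -0.18).

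The T-type pores open near the resting potential and support burst firing, for which thalamic neurons are the classic case. Cacna1i had 9.77, 9.52 and 9.22 in aged and 10.08, 9.6 and 9.56 in young rats, and fell at 14 d by 0.53 ± 0.13 (limma adjusted p = 0.0207). Cacna1h had 8.6, 8.45 and 8.22 in aged and 8.84, 8.47 and 8.38 in young rats, and fell at 14 d by 0.42 ± 0.12 (adjusted p = 0.0429), a call that ended in 8 of 13 alternatives. Cacna1g changed by -0.17 and -0.26 at 3 d and 14 d and passed at neither time. At 3 d none of the 6 P/Q-, N-, R- and T-type pores had passed, with changes from -0.36 to -0.17 and 3 of the 6 at an unadjusted p under 0.05. The L-type pores, which couple depolarisation to transcription, passed at neither time. Cacna1c had 8.49, 8.12 and 8.13 in aged and 8.65, 8.33 and 8.35 in young rats, lower on every stroke array than on both naive arrays, but its changes of -0.35 ± 0.12 and -0.33 ± 0.12 did not pass (limma adjusted p = 0.0723 and 0.0755). Cacna1d changed by -0.03 and -0.19.

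Thalamic neuron markers were also lower after stroke, with 4 of 6 tested lower at both times and 1, Rgs16, higher at 3 d. Their mean log2 value was 8.39, 7.07 and 7.21 in aged and 7.59, 7.17 and 7.05 in young rats over naive, 3 d and 14 d, so the aged naive array stood highest. The part of these neurons in the T-type values was not tested.

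All 3 tested alpha2delta genes fell at both times. Cacna2d2 had 8.96, 8.24 and 8.11 in aged and 8.98, 8.17 and 8.12 in young rats over naive, 3 d and 14 d. It fell by 0.77 ± 0.12 at 3 d (limma adjusted p = 0.00383) and by 0.85 ± 0.12 at 14 d (adjusted p = 0.00236), nearly alike in both ages. Cacna2d1, the binding site of gabapentin and a receptor of thrombospondins, had 10.2, 9.49 and 9.42 in aged and 10.24, 9.89 and 9.79 in young rats. It fell by 0.53 ± 0.14 and 0.62 ± 0.14 (adjusted p = 0.0304 and 0.0163), and the 3 d call ended in 5 of 13 alternatives. Its naive levels were close in the ages, while aged minus young was -0.40 at 3 d and -0.38 at 14 d. Cacna2d3 had 10.3, 10.01 and 9.67 in aged and 10.64, 10.04 and 9.89 in young rats, and fell by 0.45 ± 0.13 and 0.69 ± 0.13 (adjusted p = 0.0453 and 0.00865). Its 3 d call ended in 7 of 13 alternatives. The Cacna2d2 stretch is shown because the gene's 14 d call held in all 13 alternatives, and it is rich in CpG, with 36 in 250 bases and 2 GC boxes, 96 and 82 bases before the start.
Cacna2d2, chr8:116950856-116951105, plus strand: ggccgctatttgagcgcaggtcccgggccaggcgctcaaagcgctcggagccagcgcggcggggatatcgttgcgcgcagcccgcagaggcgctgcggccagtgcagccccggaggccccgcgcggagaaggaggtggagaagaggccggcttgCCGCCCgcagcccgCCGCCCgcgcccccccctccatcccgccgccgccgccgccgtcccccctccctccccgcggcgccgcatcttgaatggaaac

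The cytoplasmic beta subunits of calcium channels escort the pore to the membrane, and all 4 were lower at 14 d. Cacnb3 had 10.06, 9.45 and 9.32 in aged and 10.39, 9.6 and 9.7 in young rats over naive, 3 d and 14 d. It fell by 0.70 ± 0.12 at 3 d (limma adjusted p = 0.00678) and by 0.71 ± 0.12 at 14 d (adjusted p = 0.00618). Cacnb4, whose loss causes the lethargic mouse, had 10.9, 10.52 and 10.18 in aged and 11.14, 10.62 and 10.6 in young rats, and fell by 0.45 ± 0.13 and 0.63 ± 0.13 (adjusted p = 0.0455 and 0.0124). For both genes every stroke array lay below both naive arrays. The 3 d call ended in 6 of 13 alternatives for Cacnb4 (highest adjusted p = 0.38) and in 3 of 13 for Cacnb3. Cacnb2 had 9.22, 8.83 and 8.56 in aged and 9.28, 8.96 and 8.84 in young rats, and Cacnb1 had 9.88, 9.65 and 9.52 in aged and 10.13, 9.64 and 9.53 in young rats. At 3 d these changed by -0.35 and -0.36 and did not pass (adjusted p = 0.0815 and 0.083), and at 14 d they fell by 0.55 ± 0.12 and 0.48 ± 0.13 (adjusted p = 0.0172 and 0.0308).

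Of the 7 tested gamma subunits 1 fell at 3 d and 2 at 14 d. Cacng2, or stargazin, brings AMPA receptors to synapses and slows their closing. It had 10.07, 9.7 and 9.58 in aged and 10.29, 9.14 and 9.02 in young rats over naive, 3 d and 14 d. It fell by 0.76 ± 0.20 at 3 d (limma adjusted p = 0.0344) and by 0.88 ± 0.20 at 14 d (adjusted p = 0.0182). All stroke arrays were below both naive arrays, and the young ones by more: -1.15 and -1.27 in young rats, beside -0.36 and -0.49 in aged rats. Without the young naive array the changes were -0.36 and -0.49 and neither passed (adjusted p = 0.233 and 0.124). The Cacng2 stretch is shown because among the 25 channel genes with a RefSeq stretch it alone matches the letters of the TATA box. Its 2 matches, 143 and 98 bases before the start, are both on the opposite strand. The stretch holds 5 CpG.
Cacng2, chr7:111577758-111578007, minus strand: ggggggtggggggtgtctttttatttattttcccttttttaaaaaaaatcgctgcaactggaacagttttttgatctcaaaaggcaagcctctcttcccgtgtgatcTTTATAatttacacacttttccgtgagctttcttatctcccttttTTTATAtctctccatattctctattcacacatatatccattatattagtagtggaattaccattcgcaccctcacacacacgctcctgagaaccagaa

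Cacng7, a relative of stargazin, had 10.78, 10.5 and 10.24 in aged and 10.83, 10.29 and 10.04 in young rats, and fell at 14 d by 0.66 ± 0.13 (limma adjusted p = 0.00925), after -0.41 ± 0.13 at 3 d (adjusted p = 0.0563, not passed). Cacng3, Cacng4, Cacng5 and Cacng8, which also attend AMPA receptors, passed at neither time, with changes between -0.46 and -0.18 at 3 d and between -0.38 and -0.29 at 14 d. Of these Cacng8 came nearest at 14 d (adjusted p = 0.0512). Cacng1 changed by -0.45 and -0.40, did not pass, and lay below the 40th percentile on every stroke array. Cacng6, Cacng8 and Cacng7 stand side by side on chromosome 1, and Cacng1, Cacng4 and Cacng5 on chromosome 10. Of the 5 tested genes among these 1 passed, at 14 d only.

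The second question was whether channel genes differed between 14 d and 3 d. None of the 30 passed in limma, against 1.34% of all genes higher and 1.82% lower, and 2 had an unadjusted p under 0.05. Scn2b differed by -0.42 ± 0.12 (95% interval -0.69 to -0.15, adjusted p = 0.143) and was lower at 14 d by nearly the same amount in aged (-0.44) and young rats (-0.41). Scn4b differed by -0.41 ± 0.16 (-0.80 to -0.03, adjusted p = 0.361), with -0.73 in aged and -0.10 in young rats. Scn3b was 0.27 ± 0.13 higher (-0.02 to 0.56, adjusted p = 0.478), by 0.28 in aged and 0.26 in young rats. The interval for Scn7a, at 0.49 ± 0.43, ran from -0.51 to 1.5. Without the young 14 d array Scn4b passed at -0.67 (adjusted p = 0.0368), and without the aged 14 d array Scn7a passed at 1.31 (adjusted p = 0.0235).

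The third question was whether aged and young rats differed. No gene passed in limma, neither among the 30 nor among all 10947 (0% called), where 852 genes or 7.78% had an unadjusted p under 0.05. Among the 30 genes 8 had an unadjusted p under 0.05, and all 8 were lower in aged rats: Scn3a (-0.41 ± 0.11), Scn4b (-0.38 ± 0.13), Scn3b (-0.33 ± 0.10), Cacnb3 (-0.28 ± 0.10), Scn2a, Cacna2d1, Cacnb4 and Cacna1i. Their limma adjusted p-values lay between 0.63 and 0.637. In naive tissue 28 of the 30 were lower in the aged than in the young pool, with a median difference of -0.17, while 51.1% of all genes were lower. At 3 d 20 of the 30 were lower in the aged pool (median -0.07), beside 62.4% of all genes, and at 14 d 22 of the 30 (median -0.18), beside 47.9%. These are differences between single pools.

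**Figure D3:**
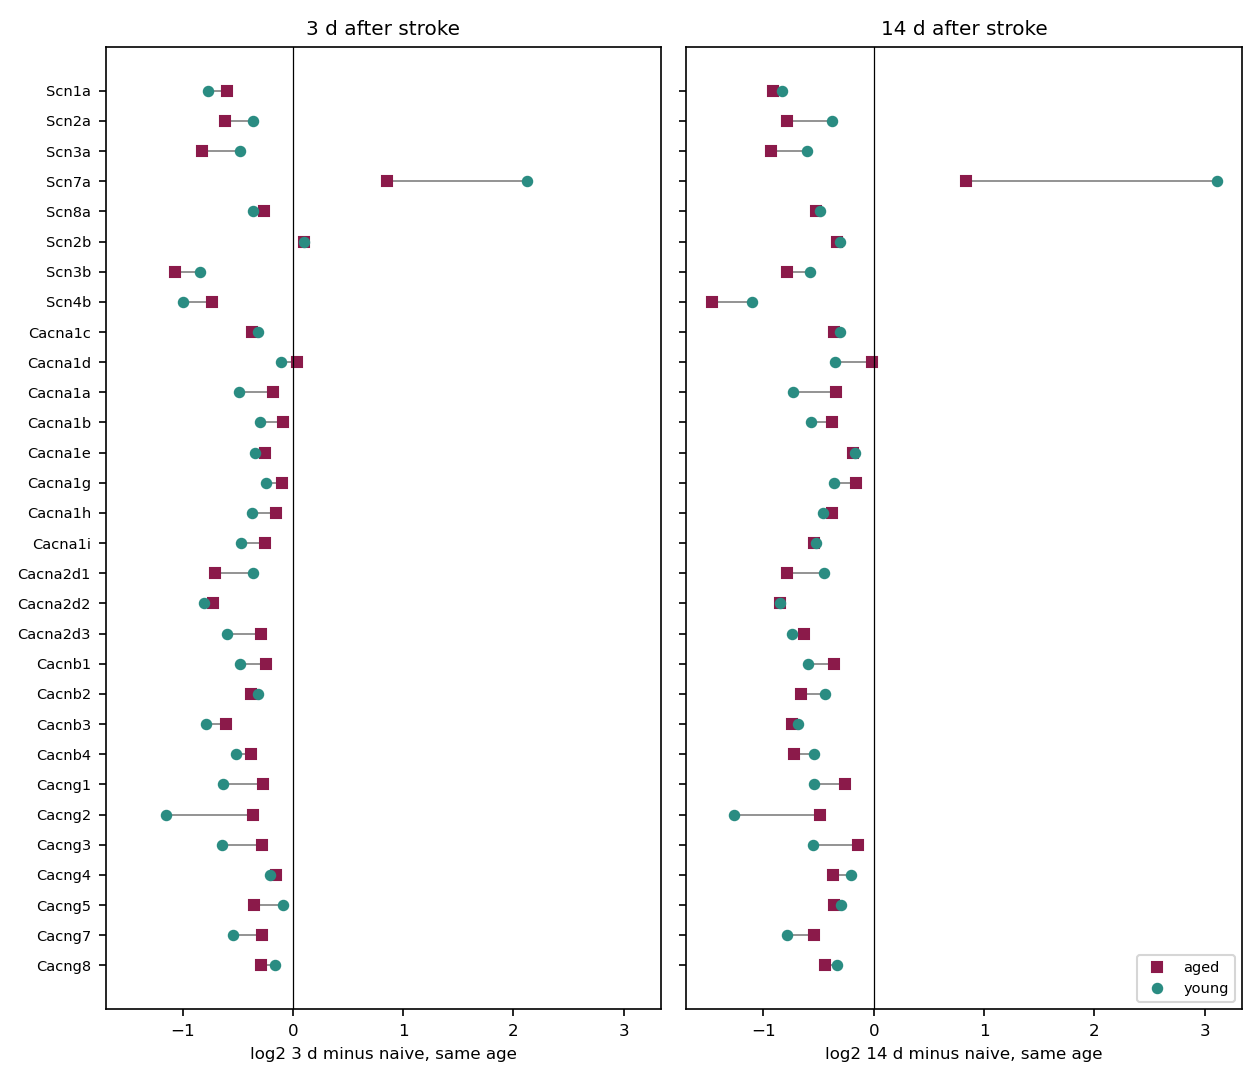
Log2 change of each of the 30 tested genes at 3 d (left) and 14 d (right) against the naive array of the same age, in aged (squares) and young (circles) rats. Each point is a difference of 2 arrays and has no error. Scn7a (0.84 in aged and 3.11 in young rats at 14 d) and Cacng2 (-0.49 and -1.27) have the widest gaps between the ages.

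Whether the response to stroke differed with age was tested as an interaction, with the 3 d and 14 d arrays taken as repeats. No gene passed among 10947 in limma (0% called), and 2 of the 30 channel genes had an unadjusted p under 0.05. These were Scn7a, whose stroke response differed by -1.77 ± 0.41 in aged minus young rats (unadjusted p = 0.00444, adjusted p = 0.998), and Cacng2, whose response differed by 0.78 ± 0.23 (unadjusted p = 0.0127, adjusted p = 0.998). With trended and robust variances both passed (adjusted p = 0.00406 and 0.0339). This fit has 1 residual degree of freedom, which measures only how alike aged minus young was at 3 d and 14 d. The spread of the naive pools, on which the interaction also turns, does not enter it. A p that misses the threshold does not show that the ages responded alike.

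Genes whose products anchor or modulate sodium channels were lower wherever they passed. Of 14 tested, 3 fell at 3 d and 5 at 14 d, and none rose, with medians of -0.32 and -0.38. Over all genes 7.87% were lower at 3 d and 11.4% at 14 d, and these shares also apply to the partner lists that follow. Fgf13 (-0.83 ± 0.14 at 3 d and -0.66 ± 0.14 at 14 d, limma adjusted p = 0.00486 and 0.0124) and Fgf14 (-0.60 ± 0.13 at both times) encode intracellular factors that bind the tail of the pore. Cntnap1 (-0.55 and -0.76 ± 0.13) encodes the paranodal protein Caspr. Ank3, or ankyrin-G, which holds sodium channels at the axon initial segment, fell by 0.46 ± 0.12 at 14 d (adjusted p = 0.0277).

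Of 13 tested genes in a list of calcium channel binding and release-site proteins 5 fell at 3 d and 9 at 14 d, with medians of -0.31 and -0.45. Snap25 and Syt1 are also in the neuron list below. The list also counts Nalcn, which encodes a sodium leak channel and fell at both times. Among the genes that fell were Rem2 (-0.73 ± 0.15 at 3 d), a small GTPase that inhibits calcium channels, and Cabp1 (-0.62 ± 0.18 at 3 d and -1.01 ± 0.18 at 14 d), a calcium sensor that modulates them. Rims2 (-0.56 and -0.68 ± 0.12), a scaffold that tethers these channels at release sites, fell as well. Stac2, an adaptor of L-type channels, had 8.7, 9.03 and 8.25 in aged and 9.14, 9.39 and 8.43 in young rats over naive, 3 d and 14 d. It fell by 0.58 ± 0.13 at 14 d (limma adjusted p = 0.0156) and was 0.87 ± 0.13 lower at 14 d than at 3 d (adjusted p = 0.0112), where no channel gene passed.

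Of 11 genes of the AMPA receptor complex, which the gamma subunits join, 7 were tested: the receptor subunits Gria1 to Gria4, the auxiliary protein genes Cnih2 and Shisa7, and the scaffold gene Dlg4. Of these 7, 5 fell at 3 d and 3 at 14 d, and of the 4 receptor subunits Gria3 and Gria4 fell at both times. Gria4, a receptor subunit, fell by 0.74 ± 0.13 and 0.72 ± 0.13 (limma adjusted p = 0.00584 and 0.00617), and the auxiliary protein gene Shisa7 by 0.54 ± 0.15 and 0.53 ± 0.15. Of the thrombospondin genes, which encode matrix ligands of the alpha2delta subunit, 2 were tested, and Thbs2, Thbs3 and Thbs4 were not. Comp changed by -0.27 ± 0.15 at 3 d and -0.16 ± 0.15 at 14 d and passed at neither time. Thbs1 had 6.95, 8.52 and 7.48 in aged and 6.88, 9.14 and 7.67 in young rats over naive, 3 d and 14 d. It rose by 1.92 ± 0.17 at 3 d (adjusted p = 0.000337) and by 0.66 ± 0.17 at 14 d (adjusted p = 0.0282), while its receptor gene Cacna2d1 was lower.

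General markers of neurons were lower on the same arrays, where 7.87% of all genes were lower at 3 d and 11.4% at 14 d. Of 12 tested 2 fell at 3 d and 8 at 14 d, with median changes of -0.33 and -0.48 and mean log2 values of 11.34, 11.04 and 10.87 in aged and 11.36, 11.07 and 10.92 in young rats over naive, 3 d and 14 d. Of the channel genes 19 of 30 had a change below the neuron median at 3 d and 16 of 30 at 14 d. The 19 include Cacng1, which reached the 40th percentile on the young naive array only. The share of all genes below these medians was not counted. The channel medians of -0.36 and -0.52 were close to the neuron medians. Of 8 GABAergic interneuron markers 4 fell at 3 d and 5 at 14 d (medians -0.38 and -0.63). Of 11 markers of cortical glutamatergic neurons only 4 were tested, of which 1 fell at 3 d and 2 at 14 d. Of 7 tested oligodendrocyte markers 2 fell at 3 d, and at 14 d 1 rose and 1 fell. Of 3 tested skeletal muscle markers none passed, and Myh1, Myh4, Mylpf, Tnnt3 and Casq1 were not among the genes tested. The part of neuron number in the channel gene changes was not tested.

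**Figure D4:**
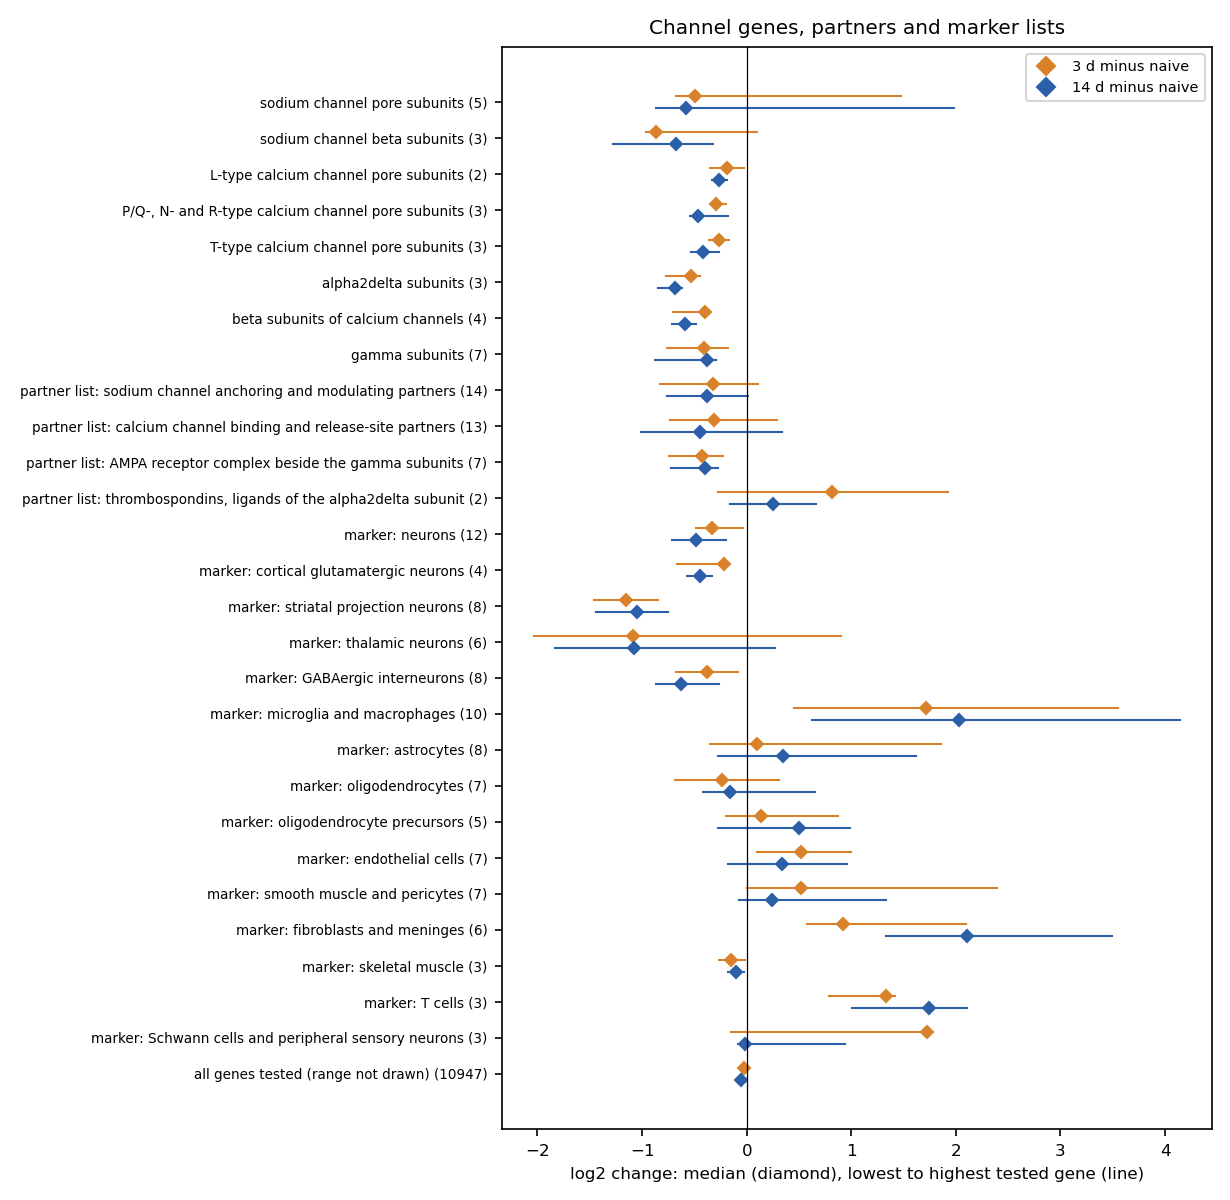
Median log2 change (diamonds) and the range from the lowest to the highest tested gene (lines) at 3 d (orange) and 14 d (blue) for the channel roles, partner lists and marker lists, with the number of tested genes in brackets. The channel role medians lie between -0.87 and -0.19, those of neuron markers at -0.33 and -0.48, and those of microglia and macrophage markers at 1.71 and 2.03.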

How the data were processed

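For each array the authors deposited a table of log2 values by probe set, where base 2 was read from their range. The tools were R 2.14.0 and affy, per the submitters' processing notes. How background was corrected, probes summarised and arrays normalized, and against which build, is not stated there. Array medians of 7.09 to 7.15 show a common scale, which removes any overall change in RNA content. No batch was given, so a batch cannot be told apart from the groups.

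Genes were named from the platform annotation, and all 35 channel symbols matched RefSeq (GRCr8). Probe sets with 1 symbol at or above the 40th percentile on at least 1 array were kept, and the highest mean stood for a gene (10947 genes). The additive model was fitted with limma 3.58.1 (R 4.3.3), with 2 residual and 5.56 prior degrees of freedom. The interaction fit had 1 residual degree. The functions were tested on simulated arrays. Alternatives were quantile normalization, centred medians, no filter, a 60th percentile filter, mean probe sets, trended and robust variances, age or time left out, and each array left out.

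The channel genes and lists were chosen with earlier results of these data known, and the motifs after the values were seen. All channel genes were named, as were up to 3 members of each partner list with the largest change past the threshold. Ank3, Stac2, Nalcn and Comp were added after their values were seen. Upstream sequences are from RefSeq (GRCr8), matched by symbol for 25 of 35 genes.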

Additional observations from a re-analysis of the deposited data

Results flagged for a closer look

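Results were listed for a closer look where aged minus young had opposite signs at different times, each by at least 0.2. For Scn7a aged minus young was 1.21 in naive tissue and -1.06 at 14 d. For Cacng2 it was -0.23 in naive tissue, 0.56 at 3 d and 0.55 at 14 d. These are differences of single pools, and the difference between these time points was not tested pair by pair. The interaction over both stroke times gave unadjusted p = 0.00444 for Scn7a and 0.0127 for Cacng2, with limma adjusted p = 0.998 for both.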

How the results depend on the processing

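No call of a channel gene changed direction under any alternative. Left out in turn, the arrays gave 2 to 18 lower genes at 3 d and 4 to 18 at 14 d, 0 to 1 higher genes at either time, and 0 to 1 higher and 0 to 1 lower genes for 14 d against 3 d. With age left out of the model 6 genes were lower and 0 higher at 3 d. With quantile normalization 0 were higher at 3 d. With trended and robust variances 18 were lower and 0 higher at 3 d, 0 were higher at 14 d, 1 was lower for 14 d against 3 d (Scn2b, adjusted p = 0.0303), and the interaction had 1 higher and 1 lower. The cause was not tested. With an array left out, the uncalled difference of Scn7a between 14 d and 3 d ran from -0.33 (without the young 14 d array) to 1.31 (without the aged 14 d array). All other planned settings kept the channel gene counts within 1.5 times. Over all genes trended and robust variances gave 1322 lower at 3 d (861 in the report) and 29 higher and 16 lower in the interaction, and centring the array medians gave 1336 higher and 1686 lower at 14 d (1491 and 1243 in the report). The interaction was not run with an array left out, since no residual degree of freedom is left. No paired analysis was possible because each group was 1 pool. With 1 pool per group the spread between animals cannot be seen. Genes near or below the 40th percentile have the least certain changes. These are Cacng1 and, in naive rats, Scn7a (21.8th percentile in young and 42.7th in aged rats).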
